A study of Mus musculus with 965 samples.

Results

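To set the loss of one de novo DNA methyltransferase beside the loss of the other, 3BKO and 3AKO embryoid bodies (EBs) were compared at day 3 of differentiation. EBs are aggregates that mouse embryonic stem cells (ESCs) form once leukemia inhibitory factor (LIF) is withdrawn, and in which the germ layers arise. All lines derived from E14, a mouse ESC line. The 3BKO cells carried a homozygous Dnmt3b knockout and came from the clones 3B126 (73 cells) and 3B77 (79 cells). The 3AKO cells carried a homozygous Dnmt3a knockout and came from the clones 3A2 (69 cells) and 3A38 (70 cells). These 152 3BKO and 139 3AKO cells, 30.2% of the 965 cells in the table, were chosen by their labels for genotype, clone and day. WT cells of day 3 (74 cells, 1 culture) carried neither knockout and are given last, as a library outside the comparison. Each clone was 1 cell line, and its cells were sorted from a pool of many EBs into wells that share 1 label in the table. The labels put 3B126 and WT in batch 2, 3B77 in batch 3 and both 3AKO clones in batch 1, so that genotype and batch cannot be told apart.

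DNMT3A and DNMT3B place methyl groups on unmethylated CpG sites as the embryo leaves naive pluripotency and enters the epiblast stage. Methylation of CpG-rich promoters keeps a set of germline genes silent in somatic cells, and both enzymes are abundant in the epiblast. TET enzymes oxidise the mark, and DNMT1 with UHRF1 copies it through cell division.

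Reads were summed over the cells of each clone and scaled to CPM, a count relative to the size of its library, with TMM factors, which correct for differences in RNA composition between libraries. The sums held 26201086 to 36184002 reads in the 4 knockout clones and 28038936 reads in WT. The TMM factors were 0.5922 and 1.268 for 3B126 and 3B77, against 1.186 and 1.123 for 3A2 and 3A38, and 0.7425 for WT. The same share of reads thus became a higher CPM in 3B126 and WT than in the other clones. CPM contrasts between 3B126 and 3B77 carry this scaling. Clone 3B126 stood apart. Its cells had a median of 3713 detected genes, against 6907 in 3B77, 6946 in 3A2, 6914 in 3A38 and 5096 in WT. After every cell was thinned to 50000 reads, the medians were 2653 genes in 3B126, 4875 in 3B77, 5103 in 3A2, 4868 in 3A38 and 3538.5 in WT. The median mitochondrial share ran between 15.7% and 22.9% in these libraries. Of the epiblast markers, Pou5f1 was seen in 32.9% of 3B126 and 98.7% of 3B77 cells, against 95.7% of 3A2 and 81.4% of 3A38 cells, and in 43.2% of WT cells, at 50000 reads per cell. The 6 mesoderm and endoderm markers (T, Mixl1, Eomes, Gata4, Gata6 and Sox17) summed to 11.2 and 6.45 CPM in 3B126 and 3B77, against 7.17 and 30.0 CPM in 3A2 and 3A38, with WT at 22.3 CPM. The 4 naive markers summed to 108 and 67.6 CPM in 3B126 and 3B77, against 285 and 23.1 CPM in 3A2 and 3A38. The 3AKO clones thus lay on both sides of the 3BKO clones. The 3 neuroectoderm markers summed to 145 and 82.7 CPM in 3B126 and 3B77, against 71.3 and 60.2 CPM in 3A2 and 3A38. The 4 fibroblast markers summed to at most 0.722 CPM in any of the 5 libraries, with Col3a1 at 0 in all of them.

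The targeted transcripts followed the labels. Dnmt3b (chr2:153649450-153687730, plus strand) had 30.2 and 27.8 CPM in 3B126 and 3B77 of the 3BKO genotype, against 208 and 254 CPM in 3A2 and 3A38 of the 3AKO genotype, with WT at 322 CPM. Dnmt3a (chr12:3806007-3914443, plus strand) had 218 and 121 CPM in 3B126 and 3B77, against 20.4 and 11.6 CPM in 3A2 and 3A38, with WT at 160 CPM. The genotypes did not overlap for either gene, and in each case WT was on the side of the clones that kept the gene. Dnmt3b was lower in 3BKO with a log2 fold change of -2.99 ± 0.66 (SE, edgeR adjusted p = 0.803), and Dnmt3a was higher with 3.40 ± 0.75 (SE, edgeR adjusted p = 0.803). Transcript remained in the deleted clones, since a read of Dnmt3b was seen in 20.5% of 3B126 and 50.6% of 3B77 cells at 50000 reads per cell, against 94.2% and 98.6% of 3A2 and 3A38 cells. For Dnmt3a the shares were 83.6% and 97.5% in 3B126 and 3B77, against 36.2% and 27.1% in 3A2 and 3A38. With all reads of each cell, the Dnmt3b shares were 32.9% and 70.9% in 3B126 and 3B77, against 98.6% and 100% in 3A2 and 3A38, and the Dnmt3a shares 93.2% and 98.7% in 3B126 and 3B77, against 49.3% and 47.1% in 3A2 and 3A38. The order of the genotypes was thus that of the levels. The sources used here do not name the exons that were removed, and a read may come from outside the deleted part. Both genes overlap an annotated antisense gene (Dnmt3bos and Dnmt3aos), and no source here names the strand setting of the counting. In summed values, fewer cells with a transcript and less RNA per cell cannot be told apart.

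Over all genes, 3BKO and 3AKO were compared with the clone as the replicate, 2 against 2. None of the 15271 genes tested passed an adjusted p of 0.05 in edgeR's quasi-likelihood test (0.0% called), whose smallest adjusted p was 0.803. At an unadjusted p under 0.05, 524 genes were higher and 397 lower in 3BKO. DESeq2 called 261 genes higher (1.71%) and 132 lower (0.864%) on the same sums. The median log2 fold change of all genes was -0.13, and the common dispersion in edgeR was 0.684. At this spread even the targeted genes missed the threshold in edgeR. DESeq2 called both (DESeq2 adjusted p = 0.0033 for Dnmt3a and 0.0135 for Dnmt3b). The p-values measure the spread between clones, which here includes that between plates and, within 3BKO, between batches.

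The genes were therefore described by whether they kept the clones apart. A gene separates all 4 clone pairs when both clones of one genotype lie above both clones of the other. By this rule 2616 genes were higher (17.1% of the genes tested) and 3345 lower (21.9%) in 3BKO. A stricter set asked for a 2-fold gap, that is a ratio of at least 2 between the lowest clone of the higher genotype and the highest clone of the lower one, with 5 CPM added to both. It held 40 genes higher in 3BKO (0.262%) and 175 lower (1.15%). At the edge of this rule, Scd2 was the last gene inside among the higher ones with a log2 gap of 1.0078 and Rps27 the first outside with 0.9994. Among the lower ones 8030462N17Rik was the last inside with 1.001 and Nexn the first outside with 0.9994. The counts depended on single clones. Without 3B126, 114 genes were higher and 312 lower with a 2-fold gap, without 3B77 1957 and 1527, without 3A2 122 and 509, and without 3A38 274 and 707.

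**Figure D1:**
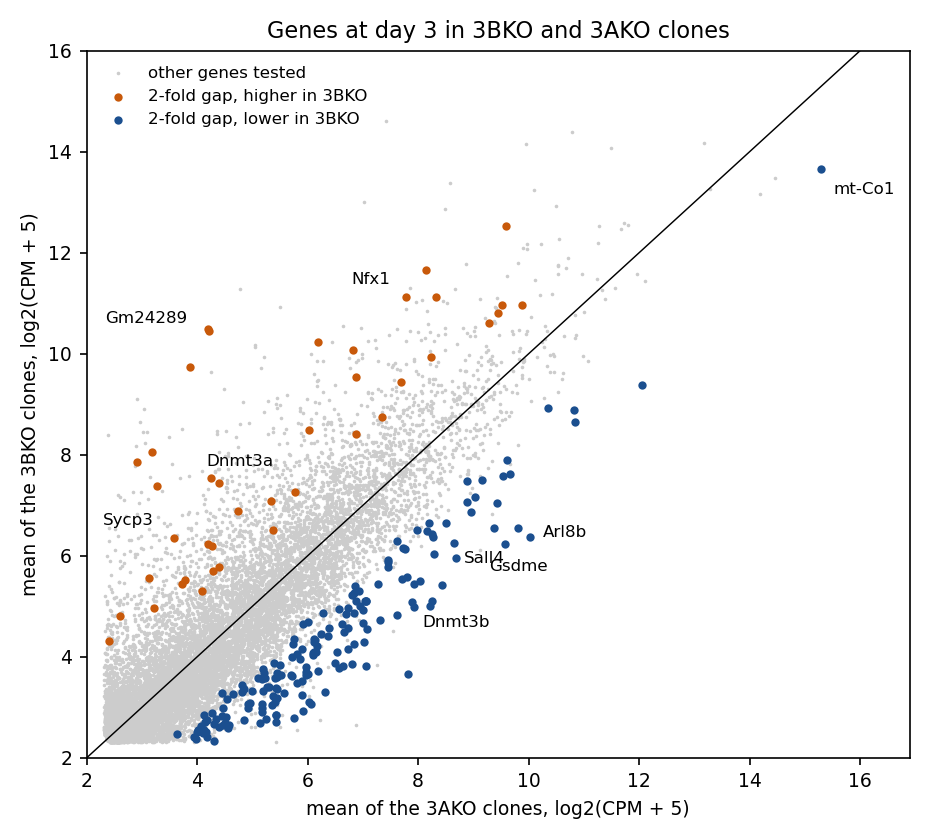
Each point is 1 of the 15271 genes tested at day 3, with the mean of the 2 3BKO clones on the vertical axis and that of the 2 3AKO clones on the horizontal axis, both as log2(CPM + 5). The 40 orange genes kept a 2-fold gap with 3BKO above 3AKO and the 175 blue genes with 3BKO below 3AKO, and the black line marks equal means.

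Among the genes lower in 3BKO, Gsdme kept the widest gap. It encodes gasdermin E, which forms pores in the plasma membrane once caspase-3 has cut it. Gsdme (chr6:50188888-50263862, minus strand) had 75.8 and 64.0 CPM in 3B126 and 3B77, against 774 and 747 CPM in 3A2 and 3A38, with WT at 105 CPM. Its log2 fold change was -3.44 ± 0.68 (SE, edgeR adjusted p = 0.803). At 50000 reads per cell it was seen in 21.9% (95% exact interval 13.1 to 33.1) of 3B126 and 53.2% (41.6 to 64.5) of 3B77 cells, against 92.8% (83.9 to 97.6) of 3A2 and 95.7% (88.0 to 99.1) of 3A38 cells, and in 40.5% of WT cells. With all reads the shares were 31.5% and 67.1% in 3B126 and 3B77, against 94.2% and 97.1% in 3A2 and 3A38. The 3AKO clones thus stood apart from the 3BKO clones and from WT, in the level and in the share of cells. These intervals cover counting error within 1 library only. Gsdme overlaps Mpp6 on the opposite strand, and where the genes overlap their reads cannot be told apart.

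Tspyl1, Arl8b, Fubp3, Mcmbp and Atp2c1, also among the 12 genes with the widest gap, likewise had WT on the side of 3BKO. Tspyl1, of the TSPY-like family of nucleosome assembly proteins, had 19.9 and 34.3 CPM in 3B126 and 3B77, against 320 and 265 CPM in 3A2 and 3A38, with WT at 46.1 CPM. Arl8b, a small GTPase that moves lysosomes along microtubules, had 35.2 and 120 CPM in 3B126 and 3B77, against 808 and 1270 CPM in 3A2 and 3A38, with WT at 132 CPM. Fubp3, a single-strand nucleic acid binding protein, had 7.91 and 11.2 CPM in 3B126 and 3B77, against 114 and 98.7 CPM in 3A2 and 3A38, with WT at 8.42 CPM. In these genes both 3AKO clones exceeded every other library. Mcmbp, which binds the replicative MCM helicase, had 31.0 and 44.6 CPM in 3B126 and 3B77, against 412 and 273 CPM in 3A2 and 3A38, with WT at 47.2 CPM. Atp2c1, a Golgi pump for calcium and manganese, had 17.6 and 29.0 CPM in 3B126 and 3B77, against 185 and 197 CPM in 3A2 and 3A38, with WT at 24.6 CPM. Mcmbp was detected in 13.7% and 65.8% of 3B126 and 3B77 cells, against 98.6% and 100% of 3A2 and 3A38 cells, so that 3B77 lay between 3B126 and 3AKO when cells were counted.

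Lower levels separated in the same way for Relch, Txnl4b, Fam219b and 9130023H24Rik. Relch, a protein of cholesterol transport at recycling endosomes, had 2.18 and 7.50 CPM in 3B126 and 3B77, against 68.4 and 80.0 CPM in 3A2 and 3A38. Txnl4b, a thioredoxin-like splicing protein, had 3.38 and 14.7 CPM in 3B126 and 3B77, against 149 and 108 CPM in 3A2 and 3A38. Fam219b had 0.710 and 4.46 CPM in 3B126 and 3B77, against 59.8 and 50.7 CPM in 3A2 and 3A38. WT had 7.41 CPM of Relch, 10.3 of Txnl4b and 9.002 of Fam219b, near the 3BKO clones. For 9130023H24Rik the values were 0.0546 and 3.77 CPM in 3B126 and 3B77, against 47.9 and 50.4 CPM in 3A2 and 3A38, with no read in WT, and all reads of 3B126 came from 1 cell. It overlaps Armc5 on the opposite strand. Gm40309, a predicted unspliced gene that lies within Ube2k on the same strand, had 4.69 and 10.5 CPM in 3B126 and 3B77, against 323 and 120 CPM in 3A2 and 3A38. Its reads cannot be told apart from unspliced Ube2k. Such predicted models (class TEC of the annotation) made up 13 of the 175 genes (7.43%), against 3.90% of all genes tested and 0 of the 40 higher genes.

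The named genes higher in 3BKO included 4 genes annotated as small guide RNAs. Each overlaps another gene on the same strand, Gm24289 with Tipin, Gm22767 with Ppp1r8, Snora75 with Ncl and Snora23 with Ipo7. Their reads cannot be told apart from unspliced RNA of those genes. Gm24289 and Gm22767 are annotated as Cajal body RNAs (scaRNAs), and Snora75 and Snora23 as small nucleolar RNAs (snoRNAs), classes that guide chemical modification of spliceosomal and ribosomal RNA. Gm24289 had 2727 and 58.1 CPM in 3B126 and 3B77, against 12.7 and 14.5 CPM in 3A2 and 3A38, with WT at 845 CPM. Snora75, which lies within Ncl, had 1663 and 33.1 CPM in 3B126 and 3B77, against 9.96 and 9.17 CPM in 3A2 and 3A38, with WT at 521 CPM. Gm22767 had 498 and 22.5 CPM in 3B126 and 3B77, against 3.04 and 5.05 CPM in 3A2 and 3A38, with WT at 262 CPM. Clone 3B126 exceeded 3B77 many times over in all of these, and WT, of the same batch as 3B126, lay between both 3BKO clones. Snora23 had 436 and 14.3 CPM in 3B126 and 3B77, against 1.54 and 3.45 CPM in 3A2 and 3A38, and 55.5% of its reads in 3B126 came from 1 cell. The 2-fold gap set held 4 sno- or scaRNAs among the 40 higher genes and 0 among the 175 lower ones, of 188 tested. Over all 15271 genes tested, 0.262% kept such a gap higher and 1.15% lower. These 4 are few, and all 4 carry the overlap given above.

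Other named genes of the higher set were of mixed function. Ifitm3, an interferon-induced membrane protein that restricts viral entry, had 150 and 109 CPM in 3B126 and 3B77, against 30.4 and 40.5 CPM in 3A2 and 3A38, with WT at 145 CPM. Atp5md, a small subunit of the mitochondrial ATP synthase, had 1140 and 343.8 CPM in 3B126 and 3B77, against 85.7 and 140 CPM in 3A2 and 3A38, with WT at 1188 CPM. Nfx1, a nuclear zinc finger protein, had 3928 and 549 CPM in 3B126 and 3B77, against 215 and 213 CPM in 3A2 and 3A38, with WT at 3820 CPM. By level, the 3AKO clones were the lowest libraries for Ifitm3, Atp5md and Nfx1. Gorasp2, a Golgi stacking protein, had 545 and 165 CPM in 3B126 and 3B77, against 49.8 and 70.2 CPM in 3A2 and 3A38. Its share of cells did not follow its level, with 52.1% and 92.4% in 3B126 and 3B77, against 75.4% and 77.1% in 3A2 and 3A38. Morc4, a MORC family ATPase gene on the X chromosome, had 299 and 22.2 CPM in 3B126 and 3B77, against 3.08 and 6.31 CPM in 3A2 and 3A38, and 1 cell gave 53.5% of the reads in 3B126. The processed pseudogene Rpl31-ps8 had 49.6 and 32.2 CPM in 3B126 and 3B77, against 8.86 and 8.70 CPM in 3A2 and 3A38. Its reads may be those of Rpl31, which was also in the set, although the study's methods left multi-mapped reads out of the counts. Gm15564 is an antisense gene over Kpna1 and Parp9. It had 768 and 608 CPM in 3B126 and 3B77, against 239 and 163 CPM in 3A2 and 3A38. Where the genes overlap, its reads cannot be told apart from those of Kpna1 and Parp9.

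**Figure D2:**
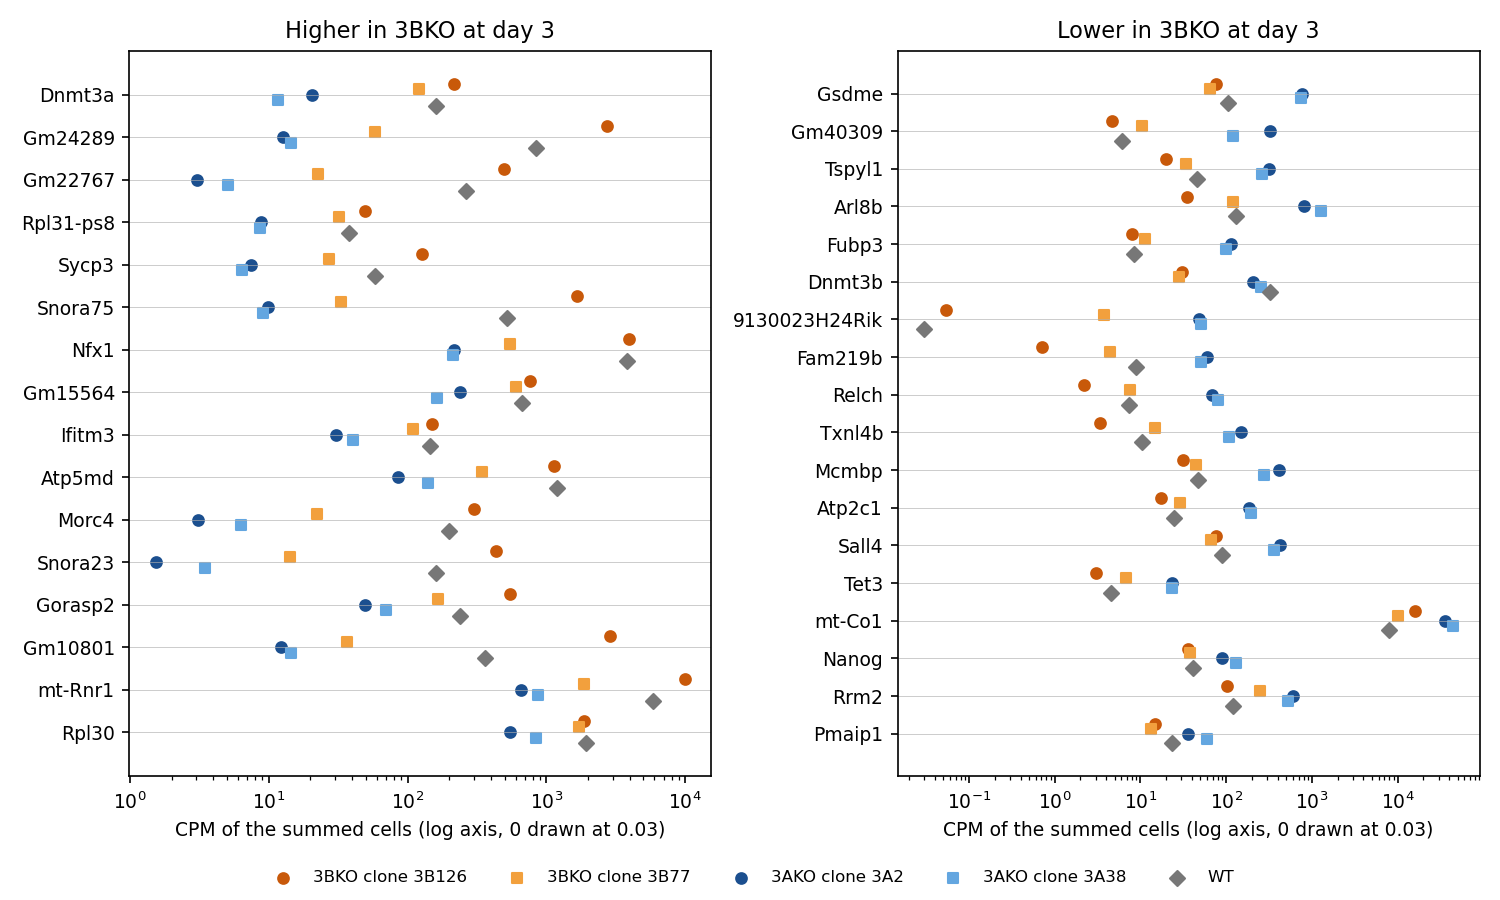
The summed CPM of the 34 named genes is drawn on a log axis for each library at day 3, with 3BKO clones in orange, 3AKO clones in blue and WT in grey, and genes ordered by gap within each panel. The 2 genotypes do not overlap for any gene, which the rule that named the genes required. WT, which the rule did not use, lies nearer the 3BKO clones for all of them but Dnmt3b.

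WT, which the rule did not use, lay nearer 3BKO than 3AKO for 35 of the 40 higher and 162 of the 175 lower genes (87.5% and 92.6%), against 65.3% of all genes tested. It lay above all 4 knockout clones for 12 of the higher genes (30.0%, against 20.9% of all genes) and below all of them for 66 of the lower ones (37.7%, against 22.3% of all genes). Since WT shares its batch with 3B126, the side of WT and the batch cannot be told apart.

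Among the genes of DNA methylation, 2 of 20 separated higher and 8 lower in 3BKO, against 17.1% and 21.9% of all genes. Of these list members Dnmt3a, Dnmt3b and Tet3 kept a 2-fold gap, and Dnmt3a and Dnmt3b are the targeted genes themselves. Tet3, the TET enzyme of the early embryo, had 3.06 and 6.81 CPM in 3B126 and 3B77, against 23.2 and 23.2 CPM in 3A2 and 3A38, with WT at 4.57 CPM. Both 3AKO clones exceeded the other 3 libraries. Uhrf1, the partner of DNMT1, had 137 and 95.7 CPM in 3B126 and 3B77, against 252 and 152 CPM in 3A2 and 3A38. Dnmt1 had 67.5 and 110 CPM in 3B126 and 3B77, against 91.7 and 78.1 CPM in 3A2 and 3A38, and the genotypes overlapped. Setdb1, a histone H3 lysine methyltransferase, separated the other way, with 735 and 106 CPM in 3B126 and 3B77, against 60.4 and 86.5 CPM in 3A2 and 3A38. None of the 20 was called by edgeR, and their median log2 fold change was -0.48, against -0.13 over all genes, and without 3A2 it was -0.11, against 0.08 over all genes.

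Pluripotency genes differed in single members. Of 13 core genes 0 separated higher and 4 lower in 3BKO, against 17.1% and 21.9% of all genes. Their median log2 fold change was -0.29, against -0.13 over all genes. Sall4, a zinc finger factor of the pluripotency network, had 77.01 and 66.3 CPM in 3B126 and 3B77, against 429 and 361 CPM in 3A2 and 3A38, with WT at 90.2 CPM. Nanog had 36.2 and 38.3 CPM in 3B126 and 3B77, against 89.2 and 132 CPM in 3A2 and 3A38, with WT at 41.1 CPM. Both 3AKO clones exceeded all other libraries for these factors, whereas Pou5f1 and Sox2 overlapped between the genotypes. Sall4 was detected in 67.1% and 87.3% of 3B126 and 3B77 cells, against 100% and 98.6% of 3A2 and 3A38 cells. The 19 naive genes tested held 2 separating higher and 1 lower, and the 19 primed epiblast genes 3 and 4, beside the same 17.1% and 21.9% of all genes.

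Genes of the primitive streak, where mesoderm and endoderm arise, were at very low levels at day 3. Of 18 genes of the primitive streak and nascent mesoderm 6 were tested, and T, Mixl1, Fgf8 and Wnt3 separated lower in 3BKO, with no 2-fold gap. T, the streak transcription factor, had no read in 3B126 or 3B77, against 0.431 and 10.2 CPM in 3A2 and 3A38, where 1 and 4 cells held a read, and 2.65 CPM in WT. Set against a floor of 3 reads over both 3BKO clones (0.0583 CPM), the 3AKO mean of T was 91.5-fold higher. This is not a lower bound, since the reads came from few cells and PCR copies count as reads. Most T reads of 3AKO were those of 3A38. Mixl1 had 1.15 and 0.211 CPM in 3B126 and 3B77, against 1.41 and 11.4 CPM in 3A2 and 3A38. The median log2 fold change of the 6 genes was -2.95, also with T at this floor, against -0.13 over all genes. Without 3A38 it was -1.05 over the 5 genes then tested, against 0.07 over all genes. After thinning only 2 of the 6 genes were tested, with a median of -0.86, against -0.05 over all genes. Of 16 neuroectoderm genes tested 5 separated higher and 1 lower in 3BKO, against 17.1% and 21.9% of all genes. Their median log2 fold change was 1.03, against -0.13 over all genes. For the neuroectoderm genes it was 0.20 without 3B77, against -0.65 over all genes. After thinning it was 0.14 over the 11 genes then tested, against -0.05 over all genes. Zic2, a zinc finger factor of the epiblast and neural plate, had 668 and 32.6 CPM in 3B126 and 3B77, against 8.12 and 22.97 CPM in 3A2 and 3A38, with WT at 386 CPM. For Zic2 the level of 3B77 was closer to those of 3AKO than to that of 3B126. Tubb3, the neuronal tubulin, had 131 and 58.3 CPM in 3B126 and 3B77, against 43.5 and 29.5 CPM in 3A2 and 3A38, with WT at 81.8 CPM. Pax6 went the other way, with 7.75 and 16.2 CPM in 3B126 and 3B77, against 23.3 and 22.4 CPM in 3A2 and 3A38.

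Of 26 germline genes that promoter methylation silences, 5 separated higher and 6 lower in 3BKO, which is near the 17.1% and 21.9% of all genes and says nothing of the list. Sycp3 and Sycp1, which build the synaptonemal complex of meiosis, were on the higher side. Sycp3 (chr10:88459569-88473236, plus strand) had 127 and 27.2 CPM in 3B126 and 3B77, against 7.47 and 6.38 CPM in 3A2 and 3A38, with WT at 58.5 CPM. It was seen in 16.4% and 35.4% of 3B126 and 3B77 cells, against 30.4% and 12.9% of 3A2 and 3A38 cells, and in 29.7% of WT cells. The shares overlapped between genotypes, and 1 cell gave 57.0% of the Sycp3 reads of 3B126. Chpt1 overlaps Sycp3 on the opposite strand. Sycp1 had 22.5 and 5.58 CPM in 3B126 and 3B77, against 0.861 and 0.468 CPM in 3A2 and 3A38. For both genes 3B126 was several-fold above 3B77. Dazl, an RNA-binding protein of germ cells, had 0.437 and 11.2 CPM in 3B126 and 3B77, against 66.2 and 16.6 CPM in 3A2 and 3A38.

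Promoters are printed for Sycp3 and for 3 of the genes lower in 3BKO, because CpG sites are what the deleted enzymes act on. Methylation was not measured in these cells. The windows are RefSeq sequence on GRCm38.p6, of 250 bases before and 50 after the start that RefSeq annotates, in lower case with every CpG in capitals.
Sycp3, chr10:88459337-88459636, plus strand: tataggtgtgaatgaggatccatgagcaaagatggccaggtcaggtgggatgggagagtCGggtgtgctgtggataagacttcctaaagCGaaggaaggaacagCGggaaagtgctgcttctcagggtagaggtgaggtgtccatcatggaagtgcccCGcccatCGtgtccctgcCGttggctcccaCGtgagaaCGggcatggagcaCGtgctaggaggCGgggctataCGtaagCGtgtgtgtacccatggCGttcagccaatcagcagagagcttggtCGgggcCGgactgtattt
Gsdme, chr6:50261720-50262019, minus strand: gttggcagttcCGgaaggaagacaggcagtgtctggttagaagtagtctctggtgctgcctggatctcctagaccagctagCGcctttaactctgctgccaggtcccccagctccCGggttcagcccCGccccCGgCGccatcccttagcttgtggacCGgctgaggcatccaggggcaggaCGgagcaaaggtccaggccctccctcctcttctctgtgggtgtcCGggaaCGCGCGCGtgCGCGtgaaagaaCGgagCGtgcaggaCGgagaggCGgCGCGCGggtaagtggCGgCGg
Fubp3, chr2:31572401-31572700, plus strand: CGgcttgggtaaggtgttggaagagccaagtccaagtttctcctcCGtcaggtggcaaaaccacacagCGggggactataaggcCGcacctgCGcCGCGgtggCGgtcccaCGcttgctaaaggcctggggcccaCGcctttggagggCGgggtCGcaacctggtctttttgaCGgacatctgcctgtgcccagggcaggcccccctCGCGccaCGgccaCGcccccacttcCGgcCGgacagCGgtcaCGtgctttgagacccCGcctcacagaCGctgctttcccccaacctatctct
Tspyl1, chr10:34281940-34282239, plus strand: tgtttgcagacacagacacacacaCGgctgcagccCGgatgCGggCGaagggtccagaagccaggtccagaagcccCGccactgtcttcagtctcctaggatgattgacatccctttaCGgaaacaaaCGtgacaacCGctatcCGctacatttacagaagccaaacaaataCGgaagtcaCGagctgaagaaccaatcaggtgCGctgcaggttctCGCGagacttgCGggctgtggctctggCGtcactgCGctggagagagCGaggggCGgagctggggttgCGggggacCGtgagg
The windows held 15 CpG in Sycp3, 24 in Gsdme, 23 in Fubp3 and 21 in Tspyl1. As a ratio of observed to expected CpG these were 0.666, 0.746, 0.725 and 0.819, with the median at 0.77 over the 10056 tested genes that had a window. The median ratio was 0.828 in the 28 higher and 0.800 in the lower genes of the 2-fold gap set that had a window. The 6-base motif CACGTG, an E-box that reads the same on both strands and is found in many germline gene promoters, was present in the windows of Sycp3 and Fubp3. It was in 2 of the 28 higher (7.14%) and 16 of the lower windows (12.7%), against 10.5% of those of all tested genes. A match is only a match of letters.

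E14 is a male line, and Ddx3y, Eif2s3y and Uty on its Y chromosome had reads in both 3AKO clones but in neither 3BKO clone. Ddx3y, an RNA helicase gene, had no read in 3B126 or 3B77, against 19.2 and 1.70 CPM in 3A2 and 3A38, with WT at 2.696 CPM. Eif2s3y, a translation initiation factor subunit, had no read in 3B126 or 3B77, against 73.8 and 1.90 CPM in 3A2 and 3A38, with WT at 6.40 CPM. Uty, a histone demethylase family gene, had no read in 3B126 or 3B77, against 1207 reads in 3A2 and 1 read in 3A38, and 92 reads in WT. Kdm5d, also Y-linked, did not follow this, with 1 read in 3B126 and 0 in 3B77, against 4 reads in 3A2 and 0 in 3A38. Set against the same floor, the 3AKO means were 179.6-fold (Ddx3y) and 650.0-fold (Eif2s3y) higher, mostly through 3A2. These are not lower bounds either, since PCR copies count as reads. Eif2s3y was read in 0 of 73 and 0 of 79 cells of 3B126 and 3B77, against 17 of 69 and 3 of 70 cells of 3A2 and 3A38, and 22 of 74 WT cells. The counts of 0 allow a share of cells with a read of up to 4.11% in 3B126 and 3.80% in 3B77, which does not limit the share of cells that carry or express the gene. At day 6 both genes again had no read in either 3BKO clone, against 98.6 and 3.25 CPM of Eif2s3y in 3A2 and 3A38.

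Of 22 ribosomal protein genes 12 separated higher and 1 lower in 3BKO, against 17.1% and 21.9% of all genes. Their median log2 fold change was 0.38, against -0.13 over all genes. Rpl30 had 1881 and 1716 CPM in 3B126 and 3B77, against 545 and 839 CPM in 3A2 and 3A38, with WT at 1932 CPM. Rps2 was the member on the lower side, with 174 and 480 CPM in 3B126 and 3B77, against 551 and 496 CPM in 3A2 and 3A38. For both genes WT was close to 3B126. Of the mitochondrial genes, the 12S ribosomal RNA mt-Rnr1 had 9965 and 1864 CPM in 3B126 and 3B77, against 658 and 875 CPM in 3A2 and 3A38, with WT at 5882 CPM. The cytochrome c oxidase subunit mt-Co1 was on the other side, with 16023 and 9996 CPM in 3B126 and 3B77, against 36002 and 44599 CPM in 3A2 and 3A38, with WT at 7970 CPM. Within the mitochondrial genome, WT thus lay beyond 3BKO for mt-Co1 and between the 3BKO clones for mt-Rnr1.

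Of 12 satellite-like predicted genes, which are near-identical copies, 7 separated higher and 0 lower in 3BKO, against 17.1% and 21.9% of all genes. Their median log2 fold change was 6.05, against -0.13 over all genes. Their reads cannot be assigned with certainty, although the study's methods left multi-mapped reads out of the counts. Gm10801 had 2850 and 36.8 CPM in 3B126 and 3B77, against 12.2 and 14.6 CPM in 3A2 and 3A38, with WT at 360 CPM. The difference was mostly that of 1 clone, as the median over the list was 0.77 without 3B126, against -0.14 over all genes. A single cell gave 56.5% of the Gm10801 reads of 3B126 and 76.1% of those of 3B77.

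Of 18 genes of G1 and S phase 2 separated higher and 9 lower in 3BKO, against 17.1% and 21.9% of all genes. Their median log2 fold change was -0.85, against -0.13 over all genes, and without 3A2 it was -0.34, against 0.08 over all genes. Rrm2, the regulated subunit of ribonucleotide reductase, had 102.4 and 248 CPM in 3B126 and 3B77, against 600 and 532 CPM in 3A2 and 3A38, with WT at 121 CPM. Mcm2, of the replicative helicase, had 32.3 and 146 CPM in 3B126 and 3B77, against 234 and 223 CPM in 3A2 and 3A38. Clone 3B77 lay between 3B126 and the 3AKO clones for both genes. Pcna, the sliding clamp, lay on the higher side with 967 and 836 CPM in 3B126 and 3B77, against 729 and 571 CPM in 3A2 and 3A38. Of 18 genes of G2 and mitosis 4 separated higher and 7 lower. Pmaip1, a BH3-only protein that p53 induces, was the member of its stress list with a 2-fold gap, and had 14.8 and 13.2 CPM in 3B126 and 3B77, against 36.4 and 60.3 CPM in 3A2 and 3A38.

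The other lists that were looked at held no gene called by edgeR. Signalling genes split without a 2-fold gap, with 3 of 13 Nodal genes separating higher and 5 lower in 3BKO, 2 of 19 Fgf and Erk genes higher and 3 lower, and 2 of 12 Wnt genes higher and 3 lower. Of 9 endoderm genes 1 separated higher and 1 lower. Of 21 imprinted genes 3 separated higher and 2 lower, and of 6 genes of the X-linked homeobox and lymphocyte-regulated clusters 2 and 3. Among stress and metabolic genes, 5 of 15 immediate early genes separated higher and 2 lower, 7 of 20 genes of p53 and the integrated stress response higher and 5 lower, 2 of 21 hypoxia and glycolysis genes higher and 7 lower, and 3 of 18 cholesterol genes higher and 4 lower. Of 9 mitochondrially encoded genes 1 separated higher and 3 lower, and of the 4 Y-linked and X inactivation genes tested 0 and 3. None of 2 clustered protocadherins or 5 fibroblast genes separated, of 4 blood and endothelial genes 1 did so lower, and of 20 genes of the early cleavage stage 12 were not in the table used here and 0 of the other 8 passed the filter on low counts. Against 17.1% and 21.9% of all genes, several of these counts are small enough that 1 gene decides the share.

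As a description of the chosen sets, over the 175 lower genes the median share of cells with a read at 50000 reads per cell was 8.22% in 3B126 and 32.9% in 3B77, against 59.4% in 3A2 and 58.6% in 3A38, and 13.5% in WT. Over all genes tested these medians were 6.85% in 3B126 and 19% in 3B77, against 20.3% in 3A2 and 18.6% in 3A38, and 9.46% in WT. Over the 40 higher genes they were 67.1% in 3B126 and 88.0% in 3B77, against 53.6% in 3A2 and 53.6% in 3A38, and 80.4% in WT. For 3B126 the low shares stand beside its low number of detected genes in general, and the part of that number in them was not tested.

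**Figure D3:**
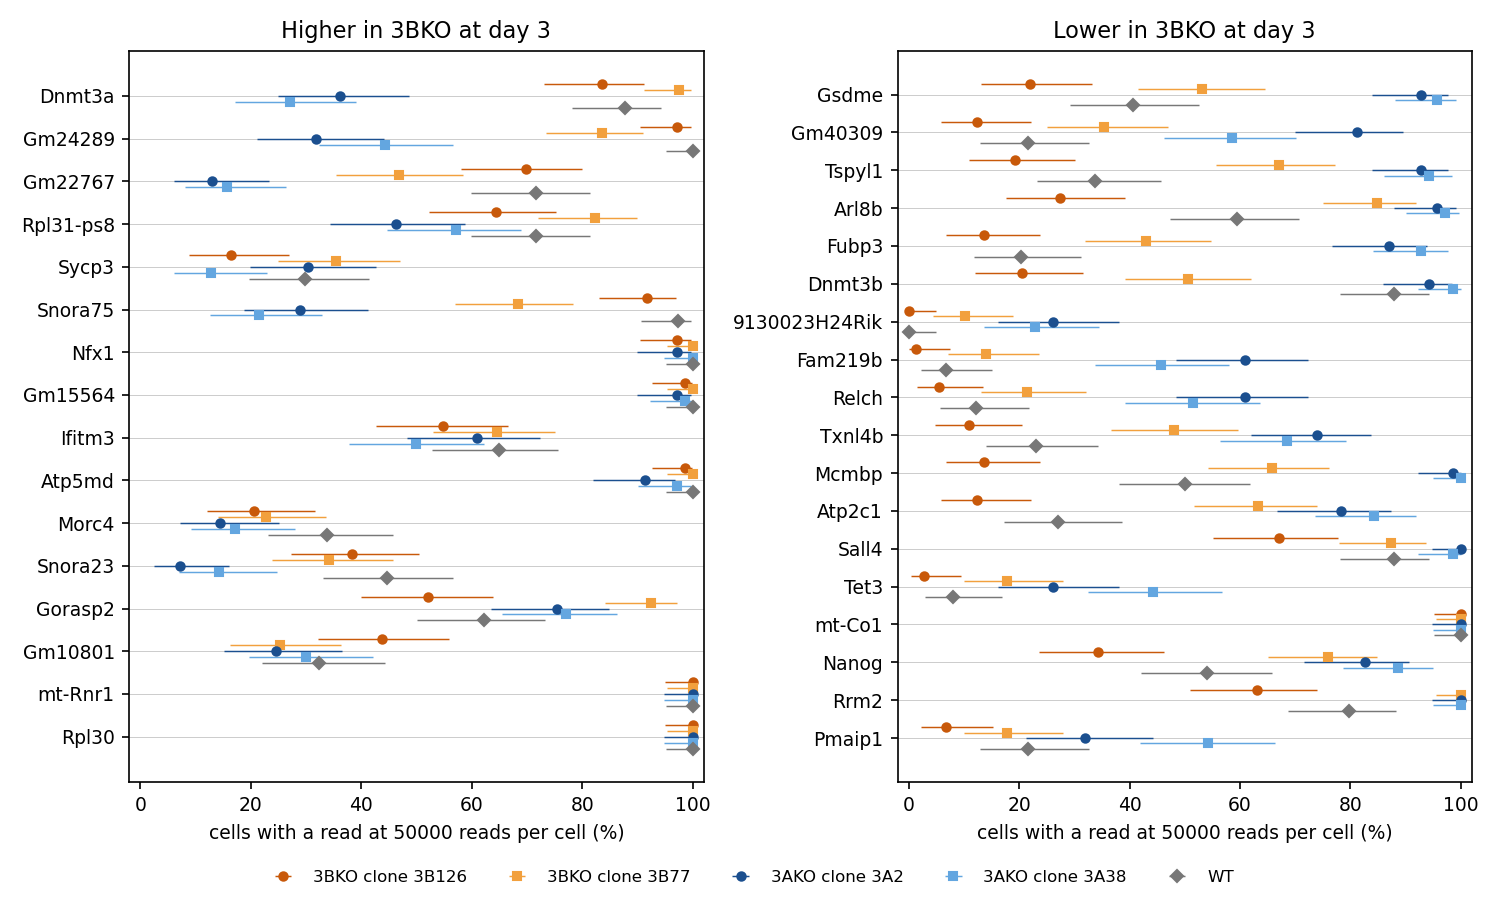
The horizontal axis gives the share of cells with at least 1 read of each named gene after thinning every cell to 50000 reads, with exact 95% binomial intervals, for the 3BKO clones (orange), the 3AKO clones (blue) and WT (grey) at day 3. For Gsdme the 3BKO clones sit at 21.9% and 53.2% and the 3AKO clones at 92.8% and 95.7%. For several other genes, Sycp3, Gorasp2, Ifitm3 and Gm10801 among them, the genotypes overlap.

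Transcript length, which the rule did not use, lay on either side of the background in the 2 sets. The longest annotated transcript had a median of 2412 bases in the 39 higher genes with a length and 3819 bases in the 169 lower ones, against 2986 bases over all 15059 such genes. Transcripts under 1000 bases made up 12 of the 39 higher genes (30.8%) and 2 of the 169 lower ones (1.18%), against 13.3% of all genes. Whether length plays a part in either set was not tested.

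**Figure D4:**
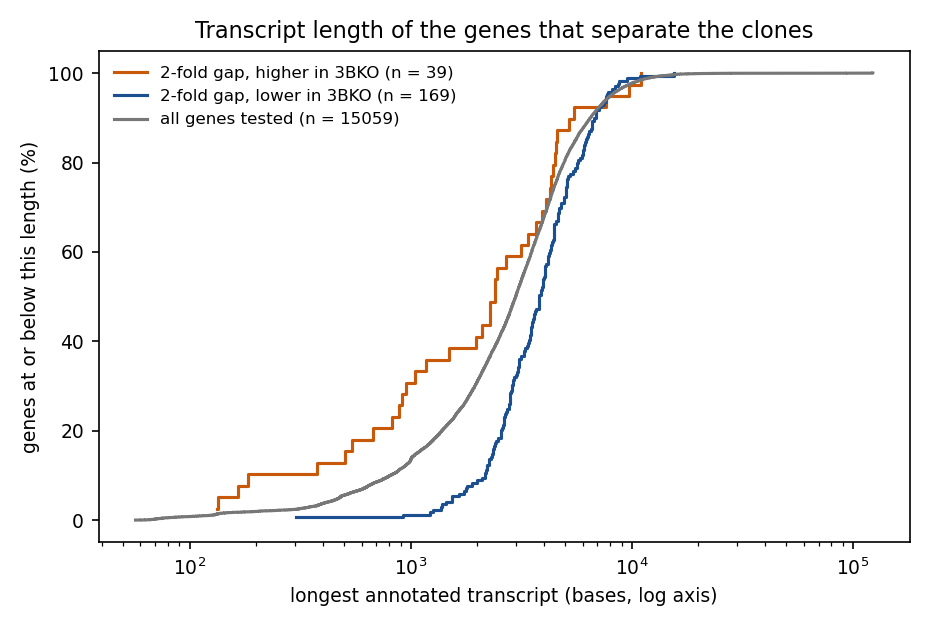
Cumulative share of genes by the length of their longest annotated transcript (log axis, in bases), for genes with a 2-fold gap that were higher (orange) or lower (blue) in 3BKO and for all genes tested (grey). The medians were 2412, 3819 and 2986 bases.

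At day 6 the same 4 clones were measured again on other plates, in the same batches. Of the 40 higher genes 26 had a higher mean in 3BKO at day 6 (65.0%) and 4 separated all clone pairs the same way (10.0%), against 46.9% and 12.3% of all genes tested. Of the 175 lower genes 67 had a lower mean in 3BKO (38.3%) and 19 separated the same way (10.9%), against 52.8% and 12.8% of all genes tested. At day 6 the share of the lower set with the same direction was thus smaller than that of all genes. Dnmt3a kept its order, with 16.7 and 22.1 CPM in 3B126 and 3B77, against 3.40 and 2.10 CPM in 3A2 and 3A38. Gsdme did not, with 234 and 77.2 CPM in 3B126 and 3B77, against 229 and 162 CPM in 3A2 and 3A38. Dnmt3b had 44.1 and 9.002 CPM in 3B126 and 3B77, against 63.4 and 7.97 CPM in 3A2 and 3A38, and overlapped. Fubp3 had 9.39 and 16.7 CPM on that day in 3B126 and 3B77, against 7.60 and 11.1 CPM in 3A2 and 3A38, all near the level of 3BKO at day 3.

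**Figure D5:**
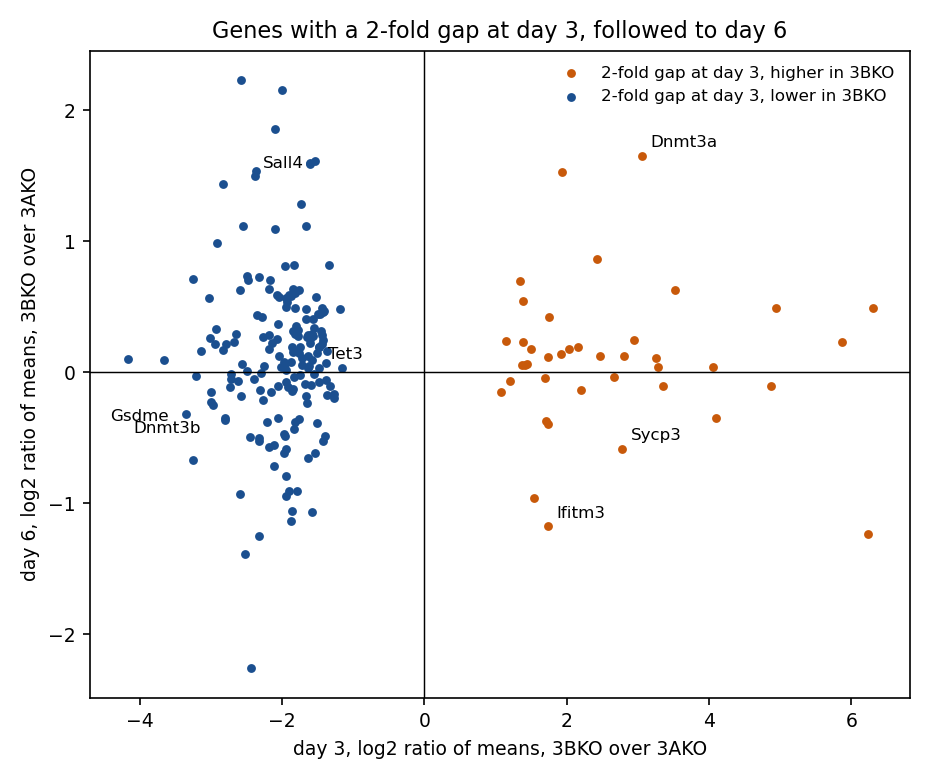
Each point is 1 of the 215 genes with a 2-fold gap at day 3, with the log2 ratio of genotype means (5 CPM added to both) at day 3 on the horizontal axis and at day 6 on the vertical axis, 3BKO over 3AKO. Of the 175 genes lower at day 3 (blue) 108 lie above 0 at day 6, and of the 40 higher ones (orange) 14 lie below 0.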

How the data were processed

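The deposited table holds raw read counts per gene for 965 single cells. Per the labels and the study's methods, the authors sorted live cells into plates, amplified full-length RNA by a modified Smart-seq2 protocol without molecular identifiers, checked reads with FastQC 0.11.2, trimmed them with Trim Galore 0.5.0, aligned them to mm10/GRCm38 with STAR 2.7.1a and counted them with featureCounts 1.6.1. All cells met the authors' limits of 50000 assigned reads, 2000 genes and 50% mitochondrial reads. No doublet caller was run on these sorted cells. PCR copies count as reads, so intervals cover counting error only.

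Counts were summed per clone and day. Genes passing filterByExpr (15271) were scaled by TMM and tested with edgeR 4.0.16 in R 4.3.3 (glmQLFit, robust, and glmQLFTest) on the 4 day 3 sums, with 2 residual degrees of freedom and Benjamini-Hochberg adjustment. DESeq2 1.42.0 was an alternative. Genes were named by these rules: among separating genes with a read in every batch, the 12 per direction with the widest gap that at least 20% of cells of both clones of the higher genotype held after thinning, members of 27 gene lists with a 2-fold gap, and Dnmt3a and Dnmt3b. Other list members are named where a sentence on their list needs them. The gap, the lists and the members were chosen with earlier results of these data known. Coordinates are those of GENCODE M21 on GRCm38. Atp5md had no match there. The fits were run on simulated data, and the outcome was checked only at a dispersion far below the 0.684 of these data. A run at a spread near that of the data carried no such check. The simulation therefore does not show that the fit can call a change at this spread.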

Additional observations from a re-analysis of the deposited data

Results flagged for a closer look

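Sall4 and Ifitm3 separated all 4 clone pairs one way at day 3 and the opposite way at day 6. The difference between the days was not tested. Sall4 was lower in 3BKO at day 3, and at day 6 had 89.8 and 110 CPM in 3B126 and 3B77, against 43.7 and 20.6 CPM in 3A2 and 3A38, a log2 ratio of means of 1.497 with 5 CPM added. Ifitm3 was higher in 3BKO at day 3, and at day 6 had 50.6 and 45.1 CPM in 3B126 and 3B77, against 163 and 65.4 CPM in 3A2 and 3A38, a log2 ratio of means of -1.18. These were 2 of 34 named genes. Of all genes lower in 3BKO with a 2-fold gap at day 3, 27 (15.4%) separated higher at day 6. Of all genes tested, 12.3% separated higher at day 6. Of the genes higher with such a gap, 1 (2.5%), Ifitm3 itself, separated lower at day 6, against 12.8% of all genes tested. A reversal like that of Sall4 was thus about as common as the same separation among all genes, and sets neither gene apart.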

How the results depend on the processing

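The direction of the 34 named genes is fixed by how they were chosen when a clone is left out, and is no sign of stability. Of their 406 values under the alternatives, 65 passed the threshold, with DESeq2, without a filter or without 3B77. Called genes, 0 in each direction with edgeR, were 261 higher and 132 lower with DESeq2 and 322 higher and 98 lower without a filter on low counts. When 1 clone was left out, edgeR called 0 to 470 genes higher and 0 to 123 lower, the most without 3B77. Genes separating the clones then ran from 4686 to 6194 higher and from 5585 to 8308 lower, and with a 2-fold gap from 114 to 1957 higher and from 312 to 1527 lower, since fewer clones have to agree. In those fits the lone clone was assumed to vary like the pair. The count of all separating genes was 3539 higher and 5026 lower without the filter. These are out of 28790 genes instead of 15271, so the counts have unlike denominators. Reasons for a shift beyond the number of genes were not tested. Under the other alternatives each of these counts stayed within 1.5 times its value. The median log2 fold change of all genes was -0.13, but -0.05 with DESeq2 size factors and -0.65 without 3B77. No paired analysis was possible because the clones of the genotypes share no replicate number. Depth limits genes read in few cells, such as T, which 1 cell of 3A2 and 4 cells of 3A38 held.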

Other observations

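In the library labelled 3B77 at day 8, outside the comparison, Ddx3y had 262 reads and Eif2s3y 910 reads, whereas 3B77 had no read of either gene at day 3 or day 6.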
